A study of Mus musculus with 8 samples.

Results

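Gene expression in the substantia nigra was compared between 4 RNA-seq libraries from mice given an α-synuclein vector and 4 libraries from mice without it. The members were chosen by treatment label alone and are all 8 libraries of the study, in 4 groups of 2. All mice were male C57BL/6. The groups were control mice, mice given AAV-α-synuclein (the vector group), mice given AKG (α-ketoglutarate), and mice given both agents (the combined group). The 4 libraries with vector are therefore the vector and combined groups, and the 4 without vector are the control and AKG groups. Either side of the comparison holds 2 libraries with AKG, so the vector difference can be read within 2 arms that share no library. These are the vector group against control, without AKG, and the combined against the AKG group, with AKG. The labels do not say whether control and AKG mice received an empty vector, nor which promoter drives the transgene. Whether the vector difference covers the virus and the injection as well as the transgene therefore cannot be told. The labels also do not say whether the 2 libraries of a group came from separate animals. A p-value here therefore reflects variation among samples that may be technical alone.

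The substantia nigra is the midbrain region whose dopamine neurons project to the striatum and are lost in Parkinson's disease. α-Synuclein is a presynaptic protein that aggregates in this disease. Adeno-associated virus (AAV) delivers a transgene to neurons without replicating, and raised α-synuclein from such vectors is widely used in rodents to stress nigral dopamine neurons. AKG is an intermediate of the TCA cycle and a co-substrate of many dioxygenases. The comparison asks what the libraries with vector shared, whatever the AKG treatment.

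Levels are FPKM, fragments per kilobase of gene scaled to library size. Differences are on the log2(FPKM + 1) scale, with vector minus without vector and AKG as a covariate, given as estimate ± standard error. This scale understates differences of low genes. The 8 libraries held 16544190.0 to 19125423 reads on genes, and the groups did not differ in total reads (two-sided exact permutation test, p = 0.914, with 0.0286 the smallest p that 4 against 4 libraries allow). Between 5.01% and 6.86% of reads came from the mitochondrial genome, and 13562 to 13903 genes reached 1 FPKM. Control library 1 was unlike the rest. It correlated with the other libraries at a mean Spearman rho of 0.926, where each other library reached at least 0.971, and principal component 1 (55.1% of the variance) set it apart. Its chi-square per degree of freedom against control library 2 was 59.3, compared with 9.72 and 10 for the vector and AKG pairs and 26.2 for the combined pair. A library's deviation from the mean of all 8 also went with gene length across genes, at Spearman rho from -0.52 in control library 1 to 0.47 in combined library 1. The part of these features in the gene differences was not tested beyond the values without control library 1 that stand beside the results.

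No gene passed the test for a vector difference. The 13716 tested genes averaged at least 1 FPKM over the libraries, and 12326 of them were protein-coding. Of the tested genes 0 had a limma adjusted p under 0.05, which is 0.0% of those tested, and the smallest adjusted p was 0.782. At an unadjusted p under 0.05 there were 336 genes, or 2.45%, with 140 higher in libraries with vector (1.02%) and 196 lower (1.43%). The 8 libraries fell into 2 ranges that did not overlap for 261 genes (1.9%), of which 115 were above (0.838%) and 146 below (1.06%). A log2 difference of at least 1 in either direction was seen for 22 genes (0.16%) and one of at least 0.5 for 231 (1.68%). Genes above and below were close to equal in number, with 49.7% above, and the median log2 difference over all tested genes was -0.0010. A test on whole reads recovered from the values also called 0 genes and had 310 at an unadjusted p under 0.05.

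The 2 arms were far from repeating each other. Only 41.8% of tested genes lay on the same side in both arms, 2752 above in both (20.1%) and 2978 below in both (21.7%). In 253 genes both libraries with vector exceeded both libraries without it in each arm (1.84%), and in 315 both were lower in each arm (2.3%). In 940 genes (6.85%) the libraries separated in both arms but in opposite directions. The median absolute log2 difference was 0.21 in the arm without AKG and 0.069 in the arm with AKG, and 0.10 with both arms together. The median standard error of that estimate was 0.11, as large as the median difference itself. The interaction, which tests whether a gene's vector difference depends on AKG, was called for 0 genes (0.0%; limma, smallest adjusted p = 0.276), with 998 at an unadjusted p under 0.05 (7.28%). With control library 2 left out, so that control library 1 stood alone for its group and was assumed to vary like the other groups, 1369 genes passed, 440 higher and 929 lower. The count was 0 without any other single library.

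**Figure D1:**
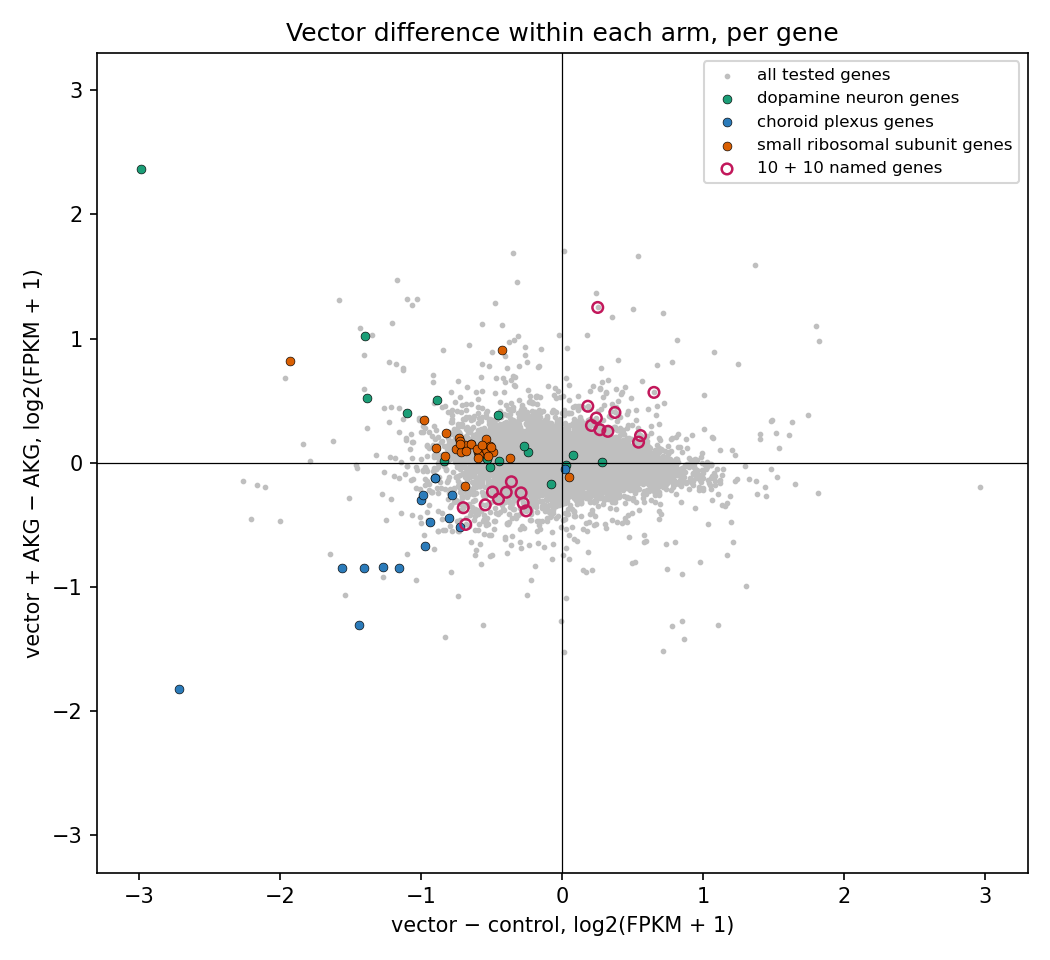
Each point is 1 of 13716 tested genes; the x axis is the vector minus control difference and the y axis the combined minus AKG difference, both in log2(FPKM + 1). Most dopamine neuron and small ribosomal subunit genes lie left of the vertical line and above the horizontal one, choroid plexus genes lie below 0 on both axes except for Prlr, and the 20 named genes lie on the same side in both arms.

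The smallest unadjusted p-values belonged to a pair of microRNA genes that the rule for named genes passes over because they are under 300 bases long. They are described here as chosen after their values were seen, with the mature sequences from RefSeq (GRCm38.p6) because a reader of the ranked genes meets them first. Capitals mark the seed, bases 2 to 8, by which a microRNA pairs with its targets. No seed is shared among the 4.
mmu-miR-149-5p: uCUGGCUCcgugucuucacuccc
mmu-miR-149-3p: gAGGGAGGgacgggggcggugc
mmu-miR-384-5p: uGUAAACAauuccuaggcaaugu
mmu-miR-384-3p: aUUCCUAGaaauuguucacaau
Mir149 (chr1:92850378-92850443, plus strand) had 0 and 0 reads in control, 3 and 2 in the AKG group, 2 and 4 in the vector group and 7 and 7 in the combined group. Mir384 (chrX:105344282-105344369, minus strand) had 0 and 0 reads in control, 0 and 2 in the AKG group, 3 and 2 in the vector group and 5 and 7 in the combined group. Both were higher with vector in each arm, while their ranges over the 4 libraries of each kind overlapped. The unadjusted p was 1.31e-04 for Mir149 and 4.49e-04 for Mir384, with a limma adjusted p of 0.782 for both. At 0 to 7 reads on genes of 66 and 88 bases these values say little about level, and an mRNA library does not measure mature microRNAs.

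Alb, Slco1a4 and Mfsd2a were among the 10 genes above with the smallest unadjusted p. Alb, serum albumin, a plasma protein made mainly by the liver (ENSMUSG00000029368, chromosome 5, 90460897 to 90476602), was at 2.43 and 2.54 FPKM in the vector group against 1.53 and 0.952 in control, and at 0.703 and 1.03 in the combined group against 0.232 and 0.277 in the AKG group. The libraries with vector were higher within each arm, though the lowest of them lay below both controls. The log2 difference was 0.61 ± 0.11, nearly equal in the arms at 0.65 and 0.57. Slco1a4, an organic anion transporter of brain endothelium (ENSMUSG00000030237), was at 9.43 and 9.73 FPKM in the vector group and 12.3 and 10.5 in the combined group. Without vector it was at 7.83 and 8.07 in control and 8.75 and 8.49 in the AKG group. All 4 libraries with vector exceeded all 4 without, at 10.5 ± 1.29 against 8.29 ± 0.413 FPKM (SD, n = 4), a log2 difference of 0.30 ± 0.075. Mfsd2a, the endothelial transporter of lysophosphatidylcholine with docosahexaenoic acid (ENSMUSG00000028655), was at 15.4 and 17.4 FPKM in the vector group and 15.9 and 16.6 in the combined group. Control was at 14.7 and 14.0 and the AKG group at 11.1 and 12.1, so the ranges again did not overlap. Its log2 difference of 0.32 ± 0.087 was 0.18 in the arm without AKG and 0.46 in the arm with AKG. The limma adjusted p was 0.782 for each of the 3 genes, so none of these differences passed.

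The upstream windows of the 2 transporters are shown because both are endothelial genes whose ranges did not overlap. They are the 250 bases before the RefSeq start (GRCm38.p6), both read on the minus strand, at chr6:141856221-141856470 for Slco1a4 and chr4:122961189-122961438 for Mfsd2a. Capitals mark a match to AGGAAG, a motif with the GGAA core of ETS factors, searched on both strands.
Slco1a4: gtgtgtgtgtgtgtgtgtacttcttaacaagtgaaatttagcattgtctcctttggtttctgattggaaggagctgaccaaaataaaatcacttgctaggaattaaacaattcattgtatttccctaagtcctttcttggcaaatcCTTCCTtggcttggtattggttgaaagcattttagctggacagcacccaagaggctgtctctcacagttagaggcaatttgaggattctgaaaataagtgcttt
Mfsd2a: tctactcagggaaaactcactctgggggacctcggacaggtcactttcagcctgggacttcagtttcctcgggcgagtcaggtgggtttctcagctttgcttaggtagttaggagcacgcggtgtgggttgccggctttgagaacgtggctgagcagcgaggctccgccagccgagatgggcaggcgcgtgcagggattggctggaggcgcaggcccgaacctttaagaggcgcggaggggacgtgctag
The Slco1a4 window held 1 match, on the opposite strand, and 0 CpG dinucleotides. The Mfsd2a window held 0 matches and 17 CpG dinucleotides, where the median over all windows was 6. AGGAAG was found in 29.5% of 32851 such windows, so a single match is common. TATAAA, the TATA box letters, was in 12.4% of windows and in neither of these.

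The other genes above were Synpo and Sipa1l1, which act at dendritic spines, Myh11, the smooth muscle myosin heavy chain, Kcng1, a modulatory potassium channel subunit, Tmem121b, Srp54b and Zfp652os. Synpo, synaptopodin, was at 3.59 and 3.68 FPKM in the vector group and 3.67 and 3.17 in the combined group, against 1.95 and 2.44 in control and 2.94 and 2.92 in the AKG group. Its difference of 0.35 ± 0.10 was larger in the arm without AKG, 0.54, than in the arm with AKG, 0.17. Myh11 was at 2.06 and 1.88 FPKM in the vector group and 2.11 and 2.28 in the combined group, against 1.43 and 1.5 in control and 1.81 and 1.51 in the AKG group. All libraries with vector were above all without, with the same difference of 0.27 in both arms. Kcng1 and Zfp652os also separated without overlap, by 0.25 ± 0.081 and 0.39 ± 0.11. Zfp652os lies antisense to Zfp652 and the strand setting was not given in the sources used here, so reads of the 2 genes cannot be told apart (Zfp652 itself differed by 0.22 ± 0.10). Srp54b, a signal recognition particle subunit, has near-identical copies that could share its reads. Its libraries overlapped, with 0.373 and 0.746 FPKM in the AKG group, 3.81 and 3.24 in the control group and 2.40 to 5.01 with vector.

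The 10 genes below with the smallest unadjusted p were Tmem150a, Chst5, Gpn2, Hpgd, Mrto4, Tmco6, Ifi30, Tnnc1, Edem2 and Dydc2. Chst5, a sulfotransferase that acts on N-acetylglucosamine (ENSMUSG00000031952), was at 1.37 and 1.11 FPKM in the vector group and 1.39 and 1.28 in the combined group. It was at 2.06 and 2.04 in control and 1.97 and 1.76 in the AKG group. Every library with vector was lower, 1.29 ± 0.129 against 1.96 ± 0.140 FPKM (SD, n = 4), a log2 difference of -0.37 ± 0.086. Tmem150a was at 3.88 to 4.49 FPKM with vector and 5.40 to 5.89 without, a difference of -0.32 ± 0.074. Gpn2, a GPN-loop GTPase, was at 5.73 to 6.43 FPKM with vector and 7.41 to 8.24 without, a difference of -0.30 ± 0.071 that was -0.28 and -0.32 in the arms. Both gene ranges were separate.

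Hpgd, which inactivates prostaglandins, was at 2.51 and 2.84 FPKM in the vector group and 2.75 and 3.75 in the combined group. Control was at 4.89 and 3.88 and the AKG group at 4.71 and 4, a difference of -0.44 ± 0.11. Ifi30, a lysosomal thiol reductase of antigen processing, was at 2.64 to 3.82 FPKM with vector and 3.94 to 7.55 without, and the highest value was control library 1. Edem2, which trims glycans of misfolded proteins in the endoplasmic reticulum, differed by -0.27 ± 0.080. Mrto4, a ribosome assembly factor, differed by -0.37 ± 0.099 with AKG library 1 inside the range of the libraries with vector. Of the 20 genes, 6 above and 8 below had ranges that did not overlap, and 8 and 9 separated in the same direction within both arms. Since the rule takes the smallest p-values, these counts describe the choice and support nothing. All 20 had a limma adjusted p of 0.782.

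**Figure D2:**
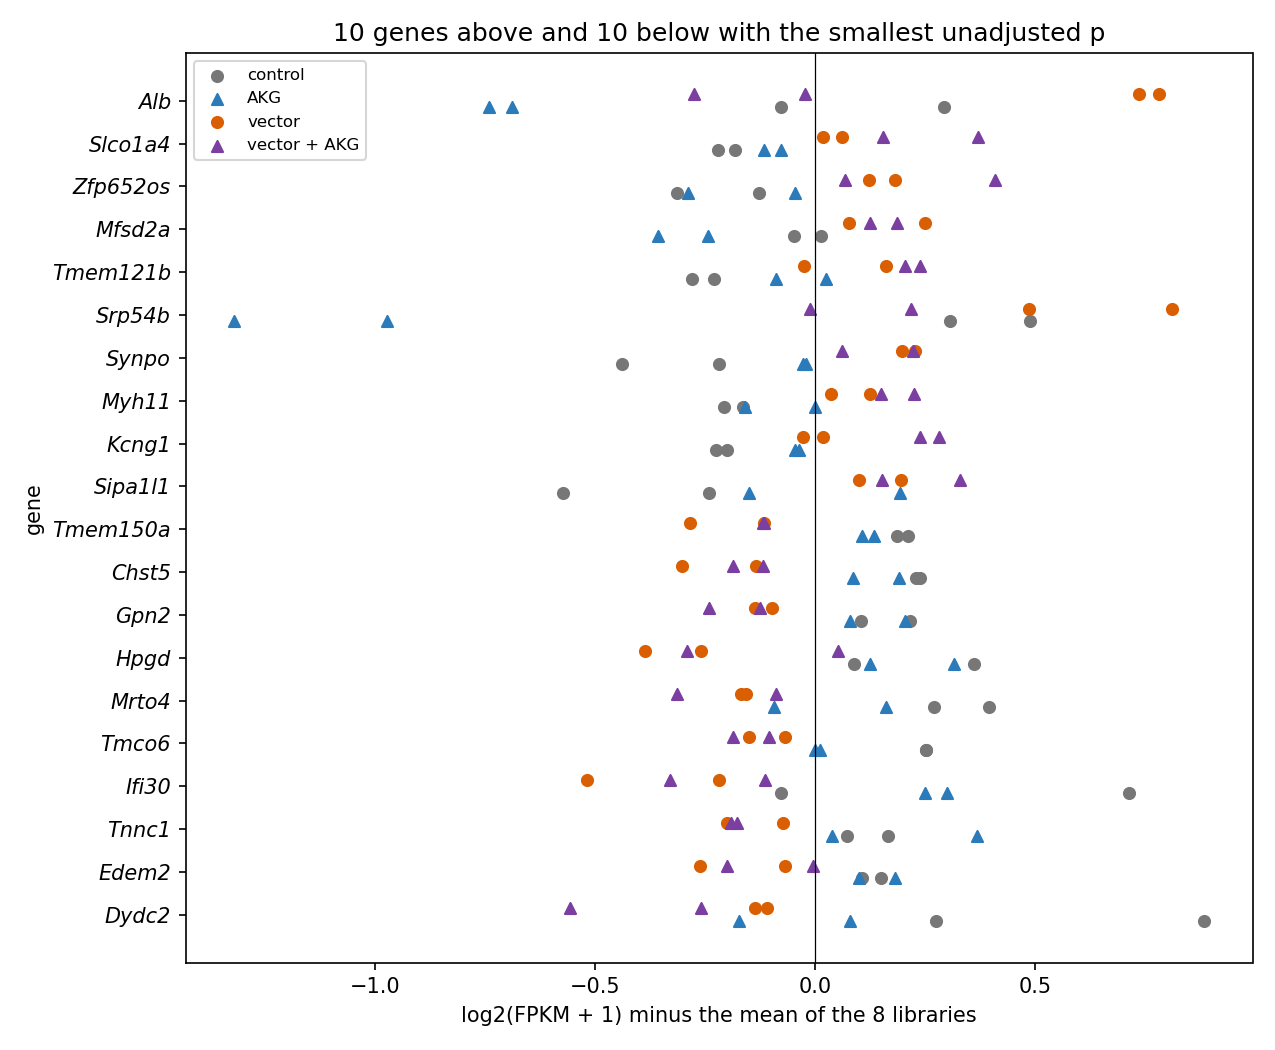
Each point is 1 library's log2(FPKM + 1) minus the mean of the 8 libraries for the 10 genes above and the 10 below with the smallest unadjusted p. Orange circles and purple triangles are libraries with vector, drawn above the grey control circles and blue AKG triangles of the same gene; the AKG libraries of Alb and Srp54b lie far to the left of the other groups.

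Genes of dopamine neurons lay on opposite sides in the 2 arms. Of 23 listed genes 17 were tested, 3 above and 14 below, with a median log2 difference of -0.19 beside -0.0010 over all tested genes. The median was -0.51 in the arm without AKG and 0.063 in the arm with AKG, and 13 of 17 genes were above in the latter. The median over both arms rested on few libraries: leaving out control library 1 gave -0.12, vector library 1 -0.046 and combined library 2 -0.33. None passed the test. In bulk RNA, fewer cells of a type and less RNA per cell cannot be told apart, which holds for every cell type gene below. Th, tyrosine hydroxylase (ENSMUSG00000000214, chromosome 7), which commits tyrosine to dopamine synthesis, was at 12.6 and 16.1 FPKM in the vector group and 14.6 and 16.6 in the combined group. Without vector it was at 38.8 and 38.8 in control and 10.7 and 10.4 in the AKG group. The libraries with vector thus lay between the 2 groups without it, and the difference was -0.43 ± 0.35, made of -1.38 in one arm and 0.52 in the other. Leaving out either control library gave -0.24, vector library 1 -0.18 and combined library 2 -0.66. Slc6a3, the dopamine transporter (ENSMUSG00000021609), showed the same order, at 24.1 and 28.5 FPKM in the control group, 4.99 and 11.9 in the combined group, 1.43 and 3.87 in the vector group and 0.801 and 0.615 in the AKG group. Its difference of -0.31 ± 0.997 had an interval from -2.62 to 2.0 (limma, 95%). The sign turned when either control library was left out, to 0.18 (library 1) and 0.27 (library 2). It turned in 4 of 22 alternative fits, and the highest value, 0.43, came from leaving out a library of another group.

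Slc18a2, the vesicular monoamine transporter, was at 10.8 and 11.3 FPKM in the control group, 7.28 and 8.30 in the vector group, 7.40 and 6.35 in the combined group and 5.74 and 4.41 in the AKG group. Ddc, which makes dopamine from L-DOPA, was at 23.1 and 16.7 FPKM in the control group, 9.74 and 10.6 in the vector group, 11.5 and 11.5 in the combined group and 8.81 and 6.91 in the AKG group. Both separated within each arm and in opposite directions, so their differences over both arms were only -0.038 ± 0.18 and -0.19 ± 0.28. The interaction for these genes had unadjusted p-values of 2.01e-05 for Th, 4.13e-05 for Slc6a3, 7.03e-04 for Ddc and 0.00399 for Slc18a2. After adjustment by limma they were 0.276, 0.283, 0.537 and 0.537, so the dependence on AKG did not pass either. Gch1, an enzyme of the cofactor that tyrosine hydroxylase needs, averaged under 1 FPKM and was not tested. It was at 2.88 and 1.16 FPKM in the control group, 0.702 and 0.716 in the vector group, 0.683 and 0.653 in the combined group and 0.486 and 0.434 in the AKG group, the order seen for Slc18a2. Not every gene of the list was ordered this way. Nr4a2, a transcription factor of these neurons, was at 3.71 to 6.78 FPKM with vector and 3.46 to 8.60 without, and Calb1, calbindin, at 37.5 to 44.8 and 37.9 to 44.3. En1, another transcription factor of these neurons, was also below the filter. It was at 1.42 and 1.37 FPKM in control and at 0 to 0.405 in the other 6 libraries.

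**Figure D3:**
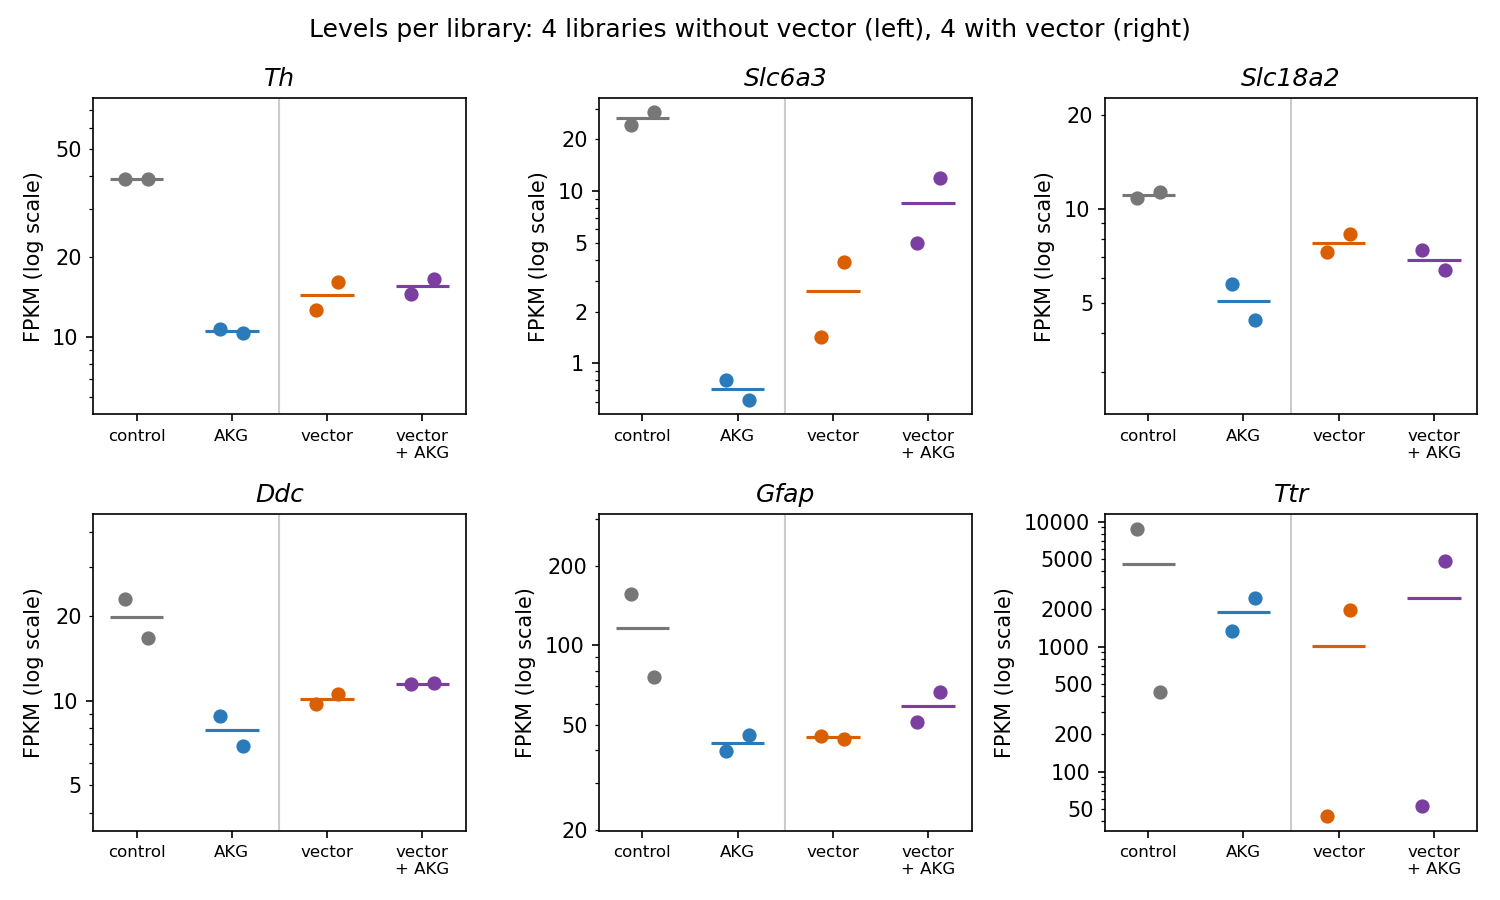
FPKM (log scale) of 6 genes in each of the 8 libraries, with groups without vector left and groups with vector right of the line; each point is a library and each bar the mean of 2. Th, Slc6a3, Slc18a2 and Ddc are highest in control and lowest in the AKG group, with the vector and combined groups between, and Ttr differs more within groups than between them.

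Markers of other neuron types had medians from -0.088 to 0.26. Of 13 tested genes of GABA neurons 7 were above and 6 below, with a median of 0.063. Striatal projection neuron genes had a median of 0.25 with 10 of 14 above. Within the arms the medians were 0.018 without AKG and 0.19 with AKG, where 12 of 14 were above. Medians over genes do not average across arms, and here the value over both arms exceeded each. Combined library 2 was the highest of the 8 for Penk, at 50.2 FPKM, and Adora2a, at 4.44. The mean of the striatal list was 3.23 in that library and 2.74 to 2.92 in the other 7, and leaving it out gave a median of 0.12, against 0.14 on leaving out control library 1 or AKG library 2. Forebrain excitatory genes were above in 9 of 9, with a median of 0.26 in all, 0.61 without AKG and -0.020 with AKG, and it was 0.13 without control library 1. Thalamic and midbrain excitatory genes were above in 9 of 12 with a median of 0.17, which was -0.036 without control library 1. Cholinergic and motor neuron genes were below in 6 of 7 with a median of -0.088. Of 12 genes on the serotonin and noradrenaline list 6 were tested, 3 above and 3 below, with a median of 0.067. These medians became -0.031 and -0.087 without control library 1. On the latter list Tph2, Slc6a4, Fev, Dbh, Slc6a2 and Gata3 were below the filter. The tested genes were Htr1a, Maoa, Maob, Gata2, Hcrt and Pmch, so the median says little about serotonin or noradrenaline neurons.

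Synaptic genes lay above in the arm without AKG and near 0 in the other. All 30 postsynaptic genes were above, with a median of 0.28, and 31 of 32 presynaptic genes, with a median of 0.27. In the arm with AKG the medians were -0.038 and -0.021, and only 10 and 12 genes were above. Shank3, a scaffold of excitatory synapses, was at 5.36 and 22.5 FPKM in the control group, 37.2 and 28 in the vector group, 40.4 and 41.6 in the AKG group and 32.7 and 35.1 in the combined group. Syn1, synapsin 1, was at 37.3 and 78.9 FPKM in control and 94.8 to 113 in the other 6. Control was low, and its library 1 lowest. Without control library 1 the medians were 0.077 and 0.046. With each library's trend in gene length removed they were 0.15 and 0.16. Baiap2, an actin regulator of spines, was the 1 synaptic gene with separate ranges, where 1.9% of all tested genes had them. It was at 8.89 to 10.8 FPKM with vector and 6.67 to 8.43 without. Its difference was 0.28 in each arm (limma adjusted p = 0.782).

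Choroid plexus and ependymal genes lay below in libraries with vector, and the choroid plexus genes varied widely within groups. All 15 tested choroid plexus genes were below, 14 of them in both arms, with a median of -0.71. Ttr, the transthyretin secreted by choroid plexus (ENSMUSG00000061808, chromosome 18), was at 44.0 and 1959 FPKM in the vector group and 53.4 and 4857 in the combined group. It was at 8778 and 435 in control and 1334 and 2466 in the AKG group. One library of each vector group was low and the other as high as the libraries without vector, and the difference was -2.27 ± 1.72. Kcne2, a potassium channel subunit of the same epithelium, had the same pattern, with 0.123 and 6.53 FPKM in the vector group and 0.0874 and 14.8 in the combined group. The summed FPKM of the list was 96.8 and 100.9 in the 2 low libraries and 528.5 to 9542 in the other 6. Leaving out control library 1 gave a median of -0.15, vector library 1 -0.34, combined library 1 -0.36, control library 2 -1.21 and combined library 2 -1.29. The 10 tested ependymal cilia genes were all below, 9 of them in both arms, with a median of -0.49, or -0.14 with control library 1 left out and -0.75 with control library 2 left out. Foxj1, the regulator of motile cilia, was at 42.4 FPKM in control library 1 and 13.2 to 18.4 in the other 7.

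Hemoglobin genes varied from library to library. Hbb-bs was at 5.53 and 212 FPKM in the control group, 85.2 and 141 in the AKG group, 121 and 88.7 in the vector group and 110 and 176 in the combined group. Control library 1 was the low one, and the difference of 0.92 ± 0.94 became -0.20 without it. Control library 2, the highest for Hbb-bs, had 0.952 FPKM of Alb, and the AKG libraries had the lowest Alb with Hbb-bs at 85.2 and 141. Control library 1 had 1.53 FPKM of Alb with Hbb-bs at 5.53. The source of the Alb reads was not tested.

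Markers of vessel cells lay on both sides. Of 17 brain endothelial genes 10 were above and 7 below, with a median of 0.020 and of -0.023 without control library 1. The list mean was 3.81 to 4.07 with vector and 3.68 to 3.99 without. The third endothelial gene at an unadjusted p under 0.05 was Abcb1a, the P-glycoprotein efflux pump, at 8.40 and 8.62 FPKM in the vector group, 10.4 and 8.69 in the combined group, 4.77 and 7.08 in control and 8.36 and 8.83 in the AKG group. Its difference was 0.31 ± 0.13 and was 0.17 without control library 1. The general endothelial markers Cldn5, at -0.032 ± 0.18, and Pecam1, at -0.011 ± 0.090, were close to 0. Slc2a1, the glucose transporter of the barrier, differed by -0.051 ± 0.097, with -0.24 in the arm without AKG and 0.13 in the arm with AKG. Of 13 mural and fibroblast genes 6 were above and 7 below, with a median of -0.058, or 0.050 with control library 1 left out and 0.092 with vector library 2 left out. Pdgfrb, a pericyte gene, and Cspg4, listed for both pericytes and oligodendrocyte precursors, were above by 0.27 ± 0.11 and 0.28 ± 0.11. Nearly all of it came from the arm without AKG, where they differed by 0.49 each, against 0.053 and 0.074 with AKG. Without control library 1 the differences were 0.19 and 0.22.

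Most glial lists had medians of opposite sign in the 2 arms. Homeostatic microglia genes had 6 above and 11 below of 17, with a median of -0.015. Aif1 was at 1.92 to 3.10 FPKM with vector and 2.44 to 4.19 without. Cd68, a lysosomal protein of microglia, was at 6.42 and 6.23 FPKM in the control group, 4.49 and 4.27 in the AKG group, 4.14 and 4.87 in the vector group and 4.91 and 6.67 in the combined group. It was lower with vector in one arm and higher in the other, by -0.42 and 0.32. Disease-associated microglia genes were below in 16 of 18 with a median of -0.17, which was -0.42 without AKG and 0.072 with AKG. It was -0.041, with 13 of 18 below, without control library 1, and -0.27 without combined library 2. Lyz2, lysozyme, was the 1 member of 18 with separate ranges, where 1.9% of all tested genes had them. It was at 6.09 to 9.82 FPKM with vector and 10.5 to 26.3 without, a difference of -0.75 ± 0.27 (limma adjusted p = 0.782). Control library 1 held its highest value, and the difference was -0.46 without it.

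Gfap, the astrocyte filament protein, was at 157 and 75.7 FPKM in the control group, 39.8 and 45.7 in the AKG group, 45.3 and 44.2 in the vector group and 51.1 and 66.3 in the combined group. Control was highest, and within the AKG arm the combined libraries were higher, and the difference was -0.41 ± 0.37. Leaving out control library 1 gave -0.033, and combined library 2 -0.66. Reactive astrocyte genes were below in 16 of 18 with a median of -0.099, which was 0.015 without control library 1. Astrocyte identity genes were divided 9 to 7, with a median of 0.027. Myelin genes were above in 17 of 22 with a median of 0.037, but in 8 of 22 with a median of -0.028 without control library 1. The myelin median was also below 0 without combined library 2, at -0.098, and without AKG library 1, at -0.033. Mbp, a main myelin protein, was at 442 to 811 FPKM with vector and 421 to 748 without. Oligodendrocyte precursor genes had a median of 0.11 with 10 of 13 above, and of 0.057 without control library 1.

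Genes that respond to virus or mark infiltrating immune cells lay mostly below with vector in the arm without AKG. In the arm with AKG the list medians were near or above 0. Most medians over both arms were nearer 0 without control library 1. Interferon response genes were below in 23 of 25, with a median of -0.19, and none was at an unadjusted p under 0.05. The 2 above were Ifit2, at 0.13 ± 0.083, and Stat2, at 0.098 ± 0.13. Ifitm3, which blocks entry of viruses, was at 20.9 and 18.2 FPKM in the vector group, 22.5 and 31.8 in the combined group, 51.6 and 26.1 in control and 21.5 and 34.8 in the AKG group. The interferon median was -0.34 without AKG and 0.026 with AKG. Leaving out control library 1 gave -0.068 and vector library 1 -0.049. Of 11 tested sensors and adaptors for nucleic acids 3 were above and 8 below, with a median of -0.10, or -0.014 with control library 1 left out and -0.043 with vector library 1 left out. Tlr3, the endosomal sensor of double-stranded RNA, was at 1.86 to 2.16 FPKM with vector and 2.16 to 2.40 without. Tlr9, the sensor of unmethylated CpG DNA, was at 0.164 to 0.546 FPKM in all libraries and was not tested.

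Most lymphocyte markers were below the filter. Of 26 listed genes 5 were tested, all below, with a median of -0.28, which was -0.13 without control library 1. The tested genes summed to 145 FPKM in that library and to 19.9 to 43.3 in the other 7. Cd3e was at 0.0266 to 0.106 FPKM and Cd8a at 0.0149 to 0.128 over the 8 libraries. Trbc2, the T cell receptor constant region, was at 2.38 to 3.13 FPKM with vector and 3.24 to 4.04 without. Ighm, the immunoglobulin M heavy chain, was at 4.03 to 5.92 and 5.24 to 7.32. Their differences of -0.28 ± 0.094 and -0.32 ± 0.12 had a limma adjusted p of 0.782. Of 15 monocyte, neutrophil and border macrophage genes 3 were tested, S100a8, S100a9 and Pf4, all below, with a median of -0.36. It became 0.12, with 2 of the 3 above, without control library 1. Pf4, a chemokine of border macrophages and platelets, was at 0.977 and 1.06 FPKM in the vector group, 0.5 and 0.853 in the combined group, 2.66 and 2.04 in control and 0.828 and 0.982 in the AKG group, so only control was high. MHC class II genes were below in 7 of 7 with a median of -0.29, which leaving out a library took to -0.034 (control 1), -0.090 (vector 1), -0.49 (control 2) and -0.51 (combined 2). MHC class I genes were below in 15 of 17 with a median of -0.14, and in 11 of 17 with a median of -0.048 without control library 1. Tap2, a peptide transporter of that pathway, was the 1 member of 17 with separate ranges, where 1.9% of all tested genes had them. It was at 2.65 to 3.04 FPKM with vector and 3.18 to 4.18 without. Complement genes were below in 11 of 13, with a median of -0.11 and of 0.034 without control library 1. In the arm with AKG 3 of 5 lymphocyte genes were above, with a median of 0.11. Of the 3 monocyte, neutrophil and border macrophage genes 2 were above in that arm, with a median of 0.44. There 4 of 7 MHC class II, 11 of 17 class I and 10 of 13 complement genes were above. Their medians were 0.0097, 0.050 and 0.099. Cytokine and NF-κB genes were divided 6 to 7 with a median of -0.0058, and Il18, an inflammasome cytokine, was at 11.1 to 14.1 FPKM with vector and 12.8 to 18.1 without.

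**Figure D4:**
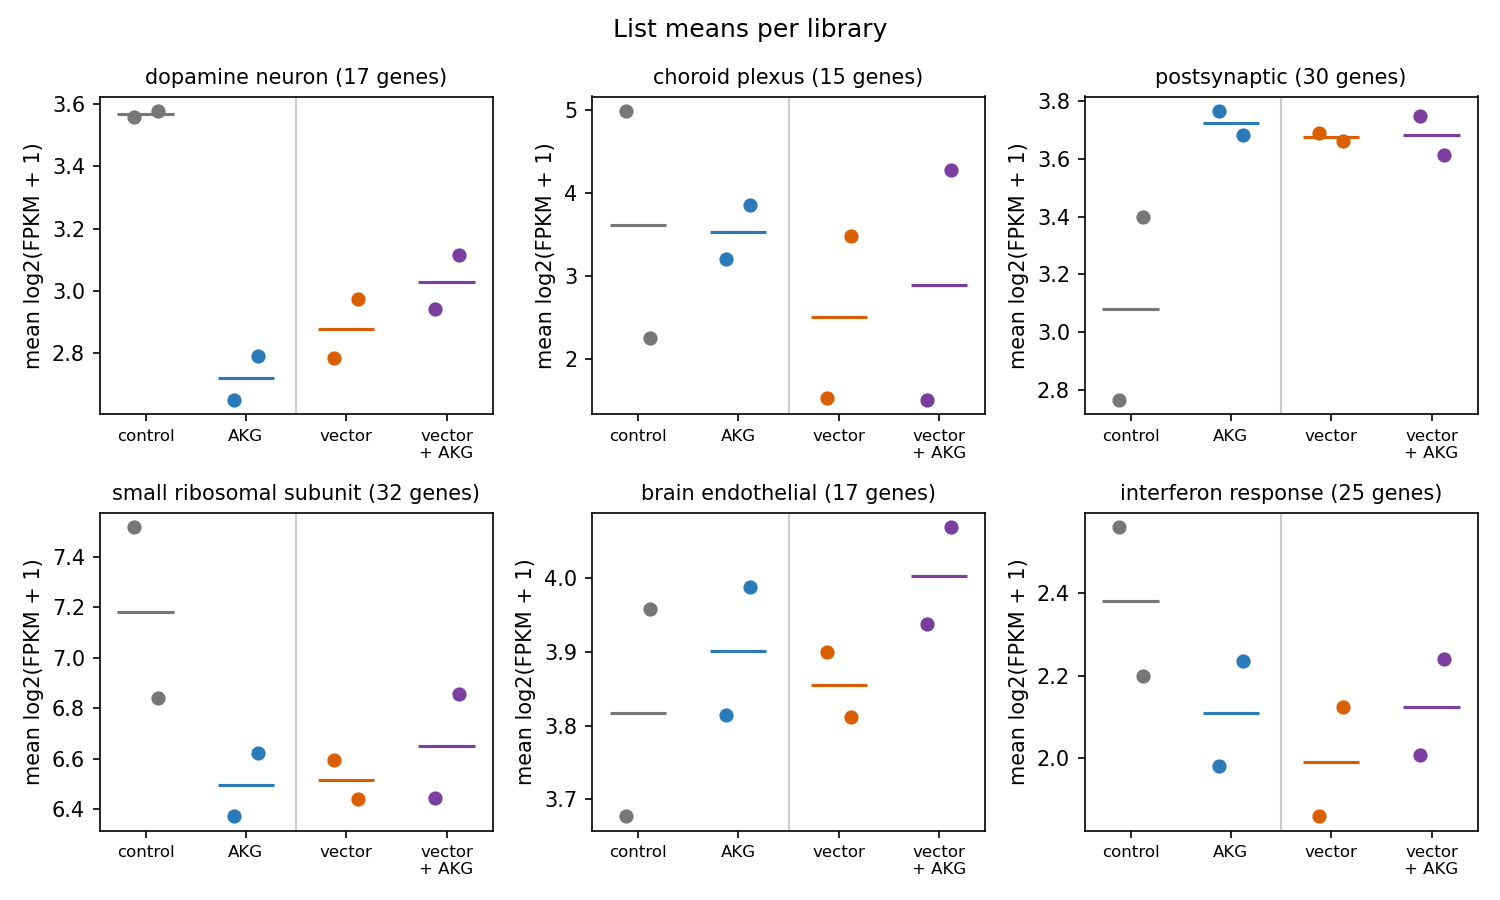
Mean log2(FPKM + 1) of 6 gene lists in each library, with groups without vector left and groups with vector right of the line; each point is a library and each bar the mean of 2. The ranges of libraries with and without vector overlap in every panel, and control library 1 is the extreme of all 8 in the choroid plexus, postsynaptic, small ribosomal subunit, brain endothelial and interferon panels.

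Nuclear genes of the ribosomes and the respiratory chain lay mostly below with vector in the arm without AKG and mostly above in the other. Of 46 large subunit ribosomal protein genes 45 were below, with a median of -0.24 in all, -0.60 without AKG and 0.13 with AKG. Of 32 small subunit genes 31 were below, with a median of -0.26 in all, -0.62 without AKG and 0.11 with AKG. In the arm with AKG 44 of 46 and 30 of 32 were above. Rps29 was at 399.8 and 246 FPKM in the control group, 139 and 261 in the AKG group, 210 and 148 in the vector group and 190 and 269 in the combined group. The list mean of the small subunit was 7.52 in control library 1, 6.84 in control library 2 and 6.37 to 6.86 in the other 6, and the medians of the large and small subunit lists were both -0.045 without that library. They were -0.39 and -0.41 without combined library 2, and -0.15 for both without vector library 2. Ribosomal protein levels are uncertain where processed pseudogenes take or lend reads. Complex I genes were below in 35 of 37 with a median of -0.19, and genes of complexes III, IV and V in 40 of 40 with a median of -0.15. With AKG 32 of 37 and 38 of 40 were above. Without control library 1 these medians were -0.076 and -0.064, without vector library 2 -0.081 and -0.066, and without combined library 2 -0.32 and -0.29. Mitochondrial ribosome genes were below in 71 of 77 with a median of -0.14, 26 of them in both arms, and the median was -0.058 without control library 1. Mrpl24 of this list had separate ranges, where 1.9% of all tested genes had them. It was at 10.9 to 12.3 FPKM with vector and 12.5 to 18.9 without. Its difference of -0.32 ± 0.12 (limma adjusted p = 0.782) was -0.21 without control library 1. The 13 genes of the mitochondrial genome had medians of -0.12 without AKG, -0.041 with AKG and -0.050 in all. That genome's share of reads was 5.51% ± 0.213 with vector and 5.93% ± 0.77 without (SD, n = 4; two-sided exact permutation test, p = 0.371).

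Stress and protein turnover lists had medians between -0.16 and 0.022. Heat shock chaperone genes had a similar median in the arms, -0.078 and -0.092. They were below in 17 of 20 with a median of -0.084, and 19 of 20 with a median of -0.12 without control library 1, while the median was -0.039 without control library 2. None was at an unadjusted p under 0.05. The list mean was 5.0 to 5.16 with vector and 5.11 to 5.26 without. Of the unfolded protein response, 18 of 23 genes were below with a median of -0.049. The endoplasmic reticulum chaperones Pdia6, Pdia4 and Sdf2l1 differed by -0.19 ± 0.075, -0.30 ± 0.13 and -0.34 ± 0.14 (limma adjusted p = 0.782). Pdia4 was at 18.2 to 21.4 FPKM with vector, 21.7 to 23.2 in 3 libraries without and 32.7 in control library 1, without which its difference was -0.17. Leaving out the same library gave -0.15 for Pdia6 and -0.20 for Sdf2l1. Genes of the p53 response, which AAV genomes can engage through the DNA damage machinery, were divided 12 above to 13 below with a median of -0.014, and of 0.034 without control library 1. Apoptosis genes were divided, with 6 above and 11 below of 17 and a median of -0.018.

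The antioxidant genes of the NRF2 list were below in 28 of 31 with a median of -0.16. Lysosome genes were below in 34 of 42 with a median of -0.093, and proteasome genes in 29 of 31 with a median of -0.10. All 3 lists lay the other way in the arm with AKG, where 22 of 31, 28 of 42 and 26 of 31 genes were above, with medians of 0.022, 0.029 and 0.066. Without control library 1 the medians over both arms were -0.048, -0.030 and -0.036. Autophagy genes were divided 20 to 18 with a median of 0.022. Genes of inherited Parkinson disease were above in 11 of 19 with a median of 0.013, and in 5 of 19 with a median of -0.023 without control library 1. Among them Synj1, a phosphatase of vesicle recycling, differed by 0.32 ± 0.22 and Park7, the DJ-1 gene, by -0.17 ± 0.14. Vacuolar ATPase genes had a median of -0.028 with 7 of 18 above. TCA cycle and AKG metabolism genes had a median of -0.029 with 12 of 34 above, and cholesterol synthesis genes one of -0.044 with 8 of 20 above. Leaving out control library 1 put 1 of 20 cholesterol genes above, with a median of -0.082, and leaving out control library 2 gave 0.0022.

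Immediate early genes were above in 14 of 20, 11 of them in both arms, with a median of 0.13 in all, 0.23 without AKG and 0.039 with AKG, and it was 0.073 without control library 1. Dusp1, a phosphatase that switches off MAP kinases, was at 9.90 and 7.93 FPKM in the vector group and 8.87 and 8.71 in the combined group, against 7.54 and 7.40 in control and 7.81 and 6.87 in the AKG group. All 4 libraries with vector were higher, with a difference of 0.23 ± 0.084 (limma adjusted p = 0.782). Junb, an AP-1 subunit, was at 6.63 to 7.56 FPKM with vector and 6.21 to 6.44 without, also with no overlap. Over all tested genes 1.9% had ranges that did not overlap. Fos, at 1.45 to 3.53 and 2.16 to 2.80 FPKM, overlapped. Circadian clock genes were above in 17 of 19 with a median of 0.14, and of 0.085 without control library 1. The clock median was 0.25 in the arm without AKG, while 9 of 19 genes were above in the arm with AKG.

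Glucocorticoid response genes were divided 10 to 8 with a median of 0.058, but 16 to 2 with a median of 0.17 without control library 1. Leaving out control library 2 gave -0.018, and combined library 1 -0.039. Plin4, a lipid droplet protein induced by glucocorticoids, was at 2.94 and 4.37 FPKM in the vector group, 5.66 and 2.90 in the combined group, 3.14 and 0.734 in control and 1.70 and 2.13 in the AKG group. The ranges overlapped through control library 1, and the difference was 0.80 ± 0.29 (limma adjusted p = 0.782). Fkbp5 and Sgk1, further targets of the receptor, differed by 0.10 ± 0.11 and -0.099 ± 0.37. Neurotrophic factor and receptor genes were above in 12 of 18 with a median of 0.091, which was 0.029 without control library 1. Igf1r, the receptor of insulin-like growth factor 1, differed by 0.33 ± 0.14, mostly in the arm without AKG, at 0.59 against 0.079, and by 0.20 without control library 1.

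The list medians depended on single libraries. Of the 51 medians, 42 moved by over 1.5 times or changed sign when control library 1 was left out, 12 of them changing sign. The same held for 28 without combined library 2, for 14 without AKG library 2 or combined library 1, and for 22 to 24 without each of the other 4. Control library 1 was therefore the library with the most effect on the lists, and the values without it stand beside most of them.

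**Figure D5:**
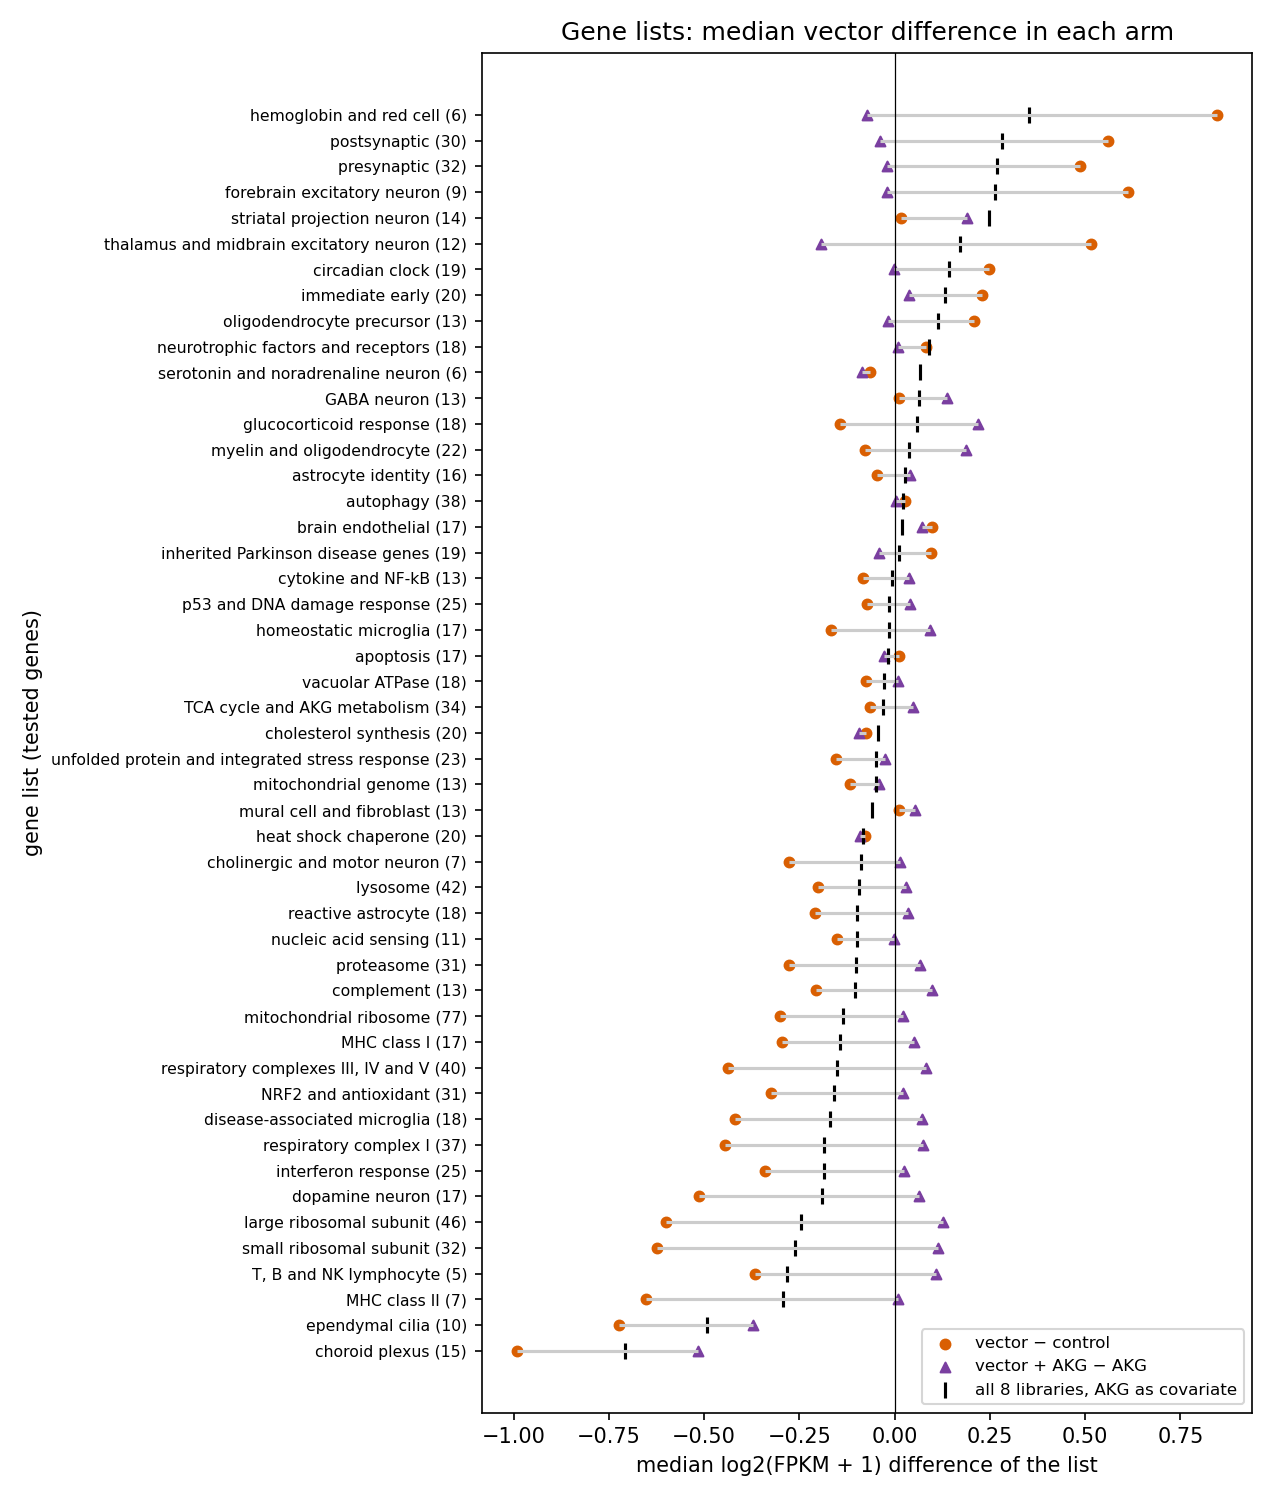
Median log2(FPKM + 1) difference of each gene list, with the number of tested genes in brackets. Orange circles are the arm without AKG, purple triangles the arm with AKG and black ticks all 8 libraries with AKG as a covariate; most lists with a large orange value have a purple value near 0 or on the other side, while choroid plexus and ependymal lists lie below 0 in both arms.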

How the data were processed

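RNA of the substantia nigra was extracted with the RNeasy mini plus kit, and libraries were made with the SMARTer mRNA-seq kit from total RNA, per the labels' protocols. The authors deposited 1 table of FPKM values for 54532 genes with gene lengths, coordinates and symbols, per the file headers. Builds GRCm38 and mm10 are named per the submitters' processing notes. Aligner, counter and strand: not given in the sources used here. FPKM times gene length came out as whole reads in 100% of cases, with a tolerance of 0.01 read, and this gave the depth. Reads are not molecules, and intervals cover the spread between libraries only.

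Genes averaging 1 FPKM or more across the libraries entered the test, on log2(FPKM + 1) with limma 3.58.1 in R 4.3.3 (vector and AKG as terms, eBayes with trend, two-sided, Benjamini-Hochberg over 13716 genes, threshold 0.05, 5 residual degrees of freedom). A fit with 1 mean per group (4 residual degrees of freedom) gave the arm differences and the interaction. FPKM is not a count, so no count model was the main test. Single values were compared by exact permutation of the 70 relabellings.

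Named genes are the 10 with the smallest unadjusted p in each direction, leaving out pseudogenes, models with Gm or Rik names and genes under 300 bases, then up to 3 per list at an unadjusted p under 0.05, and 11 others that include Th, Slc6a3, Gfap and Ttr. Results for some of these genes are not reported here. Further list members were named after their values were seen. The comparison and the gene lists were chosen with earlier results of these data known, and lists are described with no test. Sequences come from the RefSeq tables (GRCm38.p6), and both microRNA genes and both promoters had an entry. Alternatives were other filters, pseudocounts, scalings, weights, blocks and left-out libraries, the pair of control library 1 and combined library 2 being chosen after seeing the data. The fit was tested on simulated reads with known vector differences. These held no outlying library, no trend in gene length and no AKG effect, so how the fit handles such features was not tested. Python 3.11.15, pandas 2.3.3, numpy 2.4.6, scipy 1.17.1 and matplotlib 3.10.9 were used.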

Additional observations from a re-analysis of the deposited data

Results flagged for a closer look

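Of 204 groups of 4 libraries checked, 11 held 1 library whose gap to the nearest of the others, divided by the range, was above Dixon's critical value for 95% confidence. Chance flags about 1 in 20 groups, and groups share libraries. Control library 1 was the one in 6 of the 11. In the libraries without vector, control library 1 was the high one for Pdia4 at 32.7 FPKM and for the list means of reactive astrocyte genes at 3.11, cytokine and NF-κB genes at 2.67 and apoptosis genes at 2.93. It was the low one for the list mean of neurotrophic genes at 2.68 and for the mean Spearman correlation with the other libraries at 0.926. AKG library 2 had the fewest reads of the libraries without vector, 16931263.

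Among libraries with vector, vector library 1 was low for Tmem150a at 3.88 FPKM and high for Tnnc1 at 2.50, and combined library 1 was high for Abcb1a at 10.4. Combined library 2 was high for the mean of the striatal projection neuron list at 3.23. The part of these libraries in the differences was not tested beyond the values without them.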

How the results depend on the processing

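The count of genes with a vector difference was 0 under 21 of 22 alternatives. With no filter on low values it was 1, Gm27415, at 0 FPKM in the 4 libraries without vector and 0.542 to 0.620 in the 4 with it (limma adjusted p = 0.0116). Genes at an unadjusted p under 0.05 were 336 as reported, 2035 with library weights, 1481 without combined library 2, 1404 without that library and control library 1, and 169 to 699 when another library was left out. The interaction count was 0 to 1369 over the left-out libraries, with 1369 without control library 2 and 0 otherwise. No pairing by replicate number common to all groups was seen. Correlations of same-numbered deviations ran from -0.32 (control with combined) to 0.34 (AKG with combined). With 2 libraries per group a batch shared by some same-numbered libraries cannot be told. With the replicate block 0 genes were called for the vector. Of 1096 alternative values of the 51 named genes, 1069 kept their sign and 0 passed the threshold, and 45 genes kept it throughout. When a library was left out, Slc6a3 ranged from -1.07 to 0.43, Slc18a2 from -0.19 to 0.079, Ddc from -0.39 to 0.038, Cd68 from -0.20 to 0.067, Hbb-bs from -0.20 to 1.81 and Mbp from -0.22 to 0.20. With library weights Slc18a2 was 0.10, Ddc 0.046, Hbb-bs -0.27 and Mbp -0.22. With the gene length trend removed, with or without the replicate block, Cd68 was 0.079 and Mbp -0.085. Without control library 1 and combined library 2 Hbb-bs was -0.51 and Mbp -0.32. The cause of these reversals was not tested. Of 51 list medians 29 kept their sign under every alternative and 22 did not, among them hemoglobin, reactive astrocyte, complement and brain endothelial. Precision is limited by 2 libraries per group, with a median standard error of 0.11.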
